A study of Homo sapiens with 6 samples.

Results

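Long non-coding RNAs are transcripts without a long reading frame that act as RNA, and where in the cell they sit is part of how they work. MALAT1 is held in nuclear speckles, which store splicing factors, and NEAT1 is the scaffold of paraspeckles, nuclear bodies built on its long isoform. KCNQ1OT1 is an unspliced nuclear transcript that silences neighbouring genes on the paternal chromosome. NORAD works in the cytoplasm, where it binds Pumilio proteins, repressors of messenger RNAs. OIP5-AS1, the human counterpart of the conserved RNA called Cyrano, carries a long site for the microRNA miR-7.

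These 5 genes are described here out of 58302 rows of a gene table for A549 cells, a human lung adenocarcinoma line. The table holds 6 RNA sequencing libraries, 3 from cells transfected with SNHG5, a small nucleolar RNA host gene that is itself a long non-coding RNA, and 3 controls from cells transfected with vector. They are called SNHG5 1 to 3 and vector 1 to 3 by the numbers in their labels, which speak of biological replicates. All cells were at passage 6 to 8 in RPMI 1640 medium with 10% fetal bovine serum. The labels name neither the vector nor the time after transfection. Libraries of untransfected cells were not analysed here. The 5 genes were chosen by measured values: MALAT1, NEAT1 and KCNQ1OT1 for their low level in vector 2 beside the other 5 libraries, with NORAD as the cytoplasmic counterpart. The distance of vector 2 from the rest is therefore a description and carries no test. All 5 genes passed the filter on low counts, which left 15631 genes for testing.

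The libraries held 13378079 to 16999604 counts. SNHG5 itself did not separate the groups, at 153.0, 126.3 and 62.8 CPM (read counts relative to the TMM-corrected library total) in the libraries labelled SNHG5 1, 2 and 3 and 60.9, 101.1 and 55.0 CPM in vector 1, 2 and 3. SNHG5 3 lay below vector 2, so the group names below are those of the labels. Vector 2 stood apart in composition: its share of mitochondrial transcripts was 2.57%, with 3.8% to 6.16% elsewhere, and its share of cytosolic ribosomal protein transcripts was 3.16%, with 1.76% to 2.16% elsewhere. The keratin genes KRT7, KRT8 and KRT18 and the A549-typical enzyme genes ALDH1A1 and AKR1B10 were at 742.1 CPM or more in every library, with AKR1B10, AKR1C1 and AKR1C2 highest in vector 2. EPCAM was low at 2.26 to 4.18 CPM. The leukocyte markers PTPRC and CD3E and the alveolar marker SFTPC had no count in any library, while COL1A1 was at 1.88 to 16.4 CPM and CD68, a lysosomal protein gene used as a macrophage marker, at 25.7 to 91.5 CPM. PECAM1, VWF and DCN each had counts in 1 library, at 0.133 CPM or less.

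MALAT1 and NEAT1 are neighbours on chromosome 11 on the plus strand. MALAT1 (ENSG00000251562) spans 65497762 to 65506516 in the deposited table on GRCh38 (from 65497688 in GENCODE 29), and NEAT1 (ENSG00000245532) spans 65422774 to 65445540. In GENCODE 29 the longest transcript of each has 1 exon, of 8708 bases for MALAT1 and 22743 bases for NEAT1. Neither long RNA ends in an ordinary poly(A) tail: each is cut by RNase P, and an A-rich tract encoded in the gene folds with U-rich stretches into a triple helix that guards the new end. The ends are shown because this build sets both RNAs apart from messenger RNAs. The last 11 bases of the long NEAT1 transcript, in capitals, also occur in MALAT1, 2 times, the later one ending at base 8355. The 80 bases up to that point follow for each gene, at chr11:65506037-65506116 for MALAT1 and chr11:65445461-65445540 for NEAT1, plus strand, from the GENCODE 29 transcripts.
MALAT1: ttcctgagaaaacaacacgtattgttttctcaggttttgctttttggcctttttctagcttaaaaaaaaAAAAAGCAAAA
NEAT1: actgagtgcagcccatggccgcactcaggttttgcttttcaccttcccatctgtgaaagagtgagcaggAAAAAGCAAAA
In MALAT1 the annotated small RNA RF01684 begins on the next base, at 65506117, so the tract lies directly before it.

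MALAT1 was at 475.3, 118.2 and 409.1 CPM in SNHG5 1, 2 and 3 and at 409.6, 28.0 and 371.4 CPM in vector 1, 2 and 3.  Vector 2 was lowest, from 428 counts, and lay 14.6-fold below the median of the other 5 libraries and 4.22-fold below the lowest of them. That lowest one, SNHG5 2, was itself 3.14-fold below the remaining 4, which ran from 371.4 to 475.3 CPM. MALAT1 was therefore lowest in the libraries numbered 2 of both groups. Among the 15631 tested genes, 18 had a larger drop in vector 2 (0.115%).

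NEAT1 was at 212.5, 135.9 and 101.8 CPM in SNHG5 1, 2 and 3 and at 202.9, 23.4 and 160.1 CPM in vector 1, 2 and 3. It too was lowest in vector 2, from 357 counts, 6.85-fold below the median and 4.35-fold below the lowest of the other 5. Unlike MALAT1, NEAT1 in SNHG5 2 lay inside the range of the other libraries, above SNHG5 3. Counts per gene do not separate the short polyadenylated NEAT1 isoform from the long one that builds paraspeckles.

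KCNQ1OT1 (ENSG00000269821, chromosome 11, 2608328 to 2699994, minus strand) is a single exon of 91667 bases inside KCNQ1, a potassium channel gene on the opposite strand. It was rare, at 6.54, 3.20 and 9.41 CPM in SNHG5 1, 2 and 3 and at 7.32, 0.393 and 7.38 CPM in vector 1, 2 and 3. In vector 2 the value rests on 6 counts, with an exact Poisson interval at 95% of 0.144 to 0.855 CPM that covers counting error only. Vector 2 was 18.6-fold below the median of the other 5 and 8.14-fold below the lowest, SNHG5 2, which in turn was 2.05-fold below the remaining 4. As for MALAT1, both libraries numbered 2 were at the bottom, while the order of the other 4 differed: SNHG5 1 was the highest for MALAT1 and the lowest of these 4 for KCNQ1OT1. KCNQ1 had 1 to 6 counts per library and overlaps 121 exonic bases of KCNQ1OT1. With a kit that does not mark strand, reads of the 2 genes cannot be told apart over these bases. The same holds for reads of unspliced KCNQ1 RNA inside KCNQ1OT1.

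NORAD (ENSG00000260032, chromosome 20, 36045622 to 36050960, minus strand) is 1 exon of 5339 bases with no overlapping gene in GENCODE 29. Its sequence is shown because repeated Pumilio sites define this RNA. The motif TGTANATA, searched on the transcript's own strand, occurred 15 times in NORAD, or 2.81 per kilobase. It occurred 0 times in MALAT1, 6 times in NEAT1, 9 times in KCNQ1OT1 and 1 time in OIP5-AS1, at most 0.26 per kilobase. Among 5858 genes whose longest transcript has 4000 to 7000 bases, 41.9% held the motif at all and 3 genes, NORAD among them, held 15 or more (0.0512%). Of the 15 sites, 4 follow with 11 bases on each side and the motif in capitals, the first, the last and sites 12 and 13, which are closely spaced, as are sites 4 and 5 and sites 9 and 10. In the order printed they lie at chr20:36050193-36050200, chr20:36046355-36046362, chr20:36047679-36047686 and chr20:36047670-36047677 on the minus strand.
NORAD site 1: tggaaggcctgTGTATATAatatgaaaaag
NORAD site 15: attagcctattTGTAAATAcctttgttata
NORAD site 12: ttactgtgctgTGTATATAgtgtatataag
NORAD site 13: tgtgtatatagTGTATATAagcggacatag
A match is a description of the letters and says nothing of binding in these cells.

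NORAD was at 500.2, 402.5 and 374.3 CPM in SNHG5 1, 2 and 3 and at 344.0, 232.3 and 315.7 CPM in vector 1, 2 and 3. Vector 2 was again lowest but by little, 1.61-fold below the median and 1.36-fold below the lowest of the other 5. Every SNHG5 library lay above every vector library, a pattern taken up with the group comparison.

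OIP5-AS1 (ENSG00000247556, chromosome 15, 41283990 to 41309737, plus strand) has 10 annotated transcripts, the longest of 8829 bases in 4 exons. It overlaps OIP5 on the opposite strand over 470 exonic bases and the read-through gene AC087721.2 on the same strand over 327. Its miR-7 site is shown because it marks the RNA as Cyrano. The site, at chr15:41300574-41300599 on the plus strand, can pair with 23 of the 24 bases of hsa-miR-7-5p (RefSeq, GRCh38.p14). Capitals mark the seed, bases 2 to 8, and its match.
hsa-miR-7-5p: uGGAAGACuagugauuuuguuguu
OIP5-AS1: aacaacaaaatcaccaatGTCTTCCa
The transcript has 2 more seed matches, pairing 15 and 14 bases. The seed match alone is common, in 48.2% of 1685 genes whose longest transcript has 7000 to 11000 bases.

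OIP5-AS1 was at 47.9, 45.9 and 96.9 CPM in SNHG5 1, 2 and 3 and at 54.8, 35.0 and 70.3 CPM in vector 1, 2 and 3. Vector 2 was lowest, 1.56-fold below the median and 1.31-fold below the lowest of the other 5. The libraries numbered 3 were highest in both groups. OIP5, which encodes a centromere protein, was at 6.69 to 8.31 CPM in the other 5 libraries and highest in vector 2, at 11.9 CPM.

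**Figure D1:**
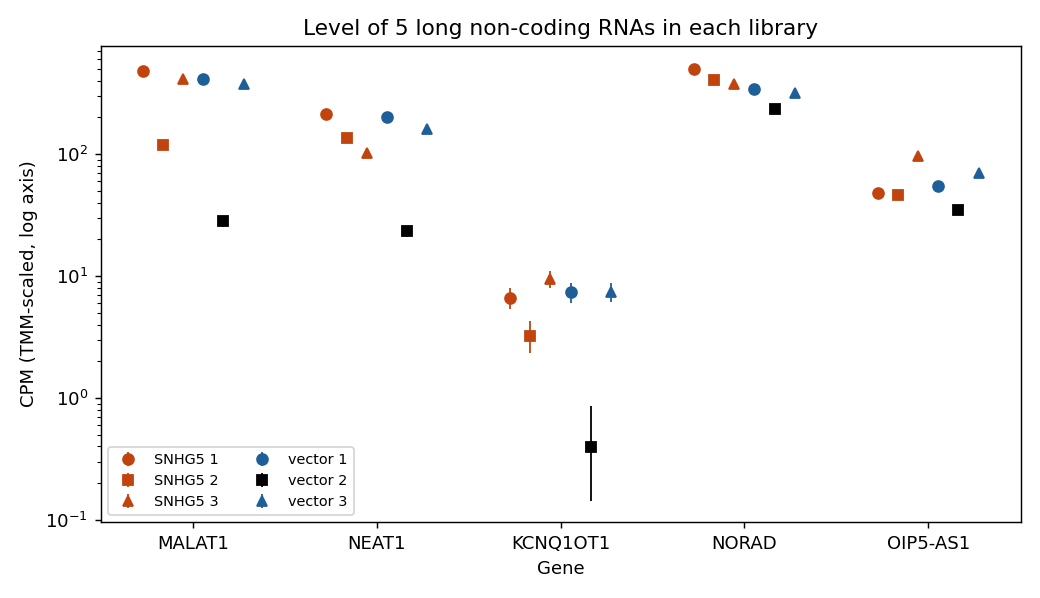
CPM (log axis) of the 5 genes, 1 point per library, with exact Poisson intervals at 95% as bars where they exceed the symbol; orange are the SNHG5 and blue the vector libraries, with vector 2 in black. Vector 2 is the lowest point for each gene, by 4.22-fold, 4.35-fold and 8.14-fold below the next for MALAT1, NEAT1 and KCNQ1OT1 and by 1.36-fold and 1.31-fold for NORAD and OIP5-AS1.

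Per kilobase of annotated exon NORAD was the highest of the 5. Its median over the 6 libraries was 67.3 CPM per kilobase (range 43.5 to 93.7). MALAT1 followed at 44.2 (3.17 to 53.8), then NEAT1 at 6.50 (1.03 to 9.33), OIP5-AS1 at 4.05 (2.76 to 7.65) and KCNQ1OT1 at 0.0756 (0.00429 to 0.103). The ranges of NORAD and MALAT1 overlapped, as did those of NEAT1 and OIP5-AS1, while KCNQ1OT1 lay below all others in every library. The highest library exceeded the lowest 24.0-fold for KCNQ1OT1, 17.0-fold for MALAT1 and 9.09-fold for NEAT1, against 2.77-fold for OIP5-AS1 and 2.15-fold for NORAD. Leaving out vector 2 brought these to 2.94-fold, 4.02-fold, 2.09-fold, 2.11-fold and 1.58-fold, so that of the 5 genes MALAT1 still varied most and NORAD least. NEAT1 length counts all of the long isoform, which understates the level of the short one. The merged exons of OIP5-AS1, 12.67 kb over 10 transcripts, exceed its longest transcript of 8829 bases. Whether the library kit captured the ends of the long MALAT1 and NEAT1 RNAs as well as an ordinary poly(A) tail was not tested. The order of levels between genes is therefore approximate.

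All 5 genes were lowest in vector 2, and 3 of them, MALAT1, NEAT1 and KCNQ1OT1, lay at least 2-fold below the lowest of the other libraries there. Of all tested genes, 26.7% were lowest in vector 2 and 3.97% lay at least 2-fold below the rest. Since the genes were chosen by this contrast, these shares are given as the background and nothing is read from them. In each other library 0.237% to 1.0% of genes lay at least 2-fold below the rest. None of the 5 could be among them, since all 5 were lowest in vector 2. The log2 distance of vector 2 to the lowest other library was -2.07, -2.12 and -2.68 for MALAT1, NEAT1 and KCNQ1OT1, past the 2-fold mark, and -0.44 and -0.39 for NORAD and OIP5-AS1, well short of it.

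Counts within 1 library can be set against NORAD without any scaling of totals. The count of MALAT1 was 0.95, 0.294 and 1.09 times that of NORAD in SNHG5 1, 2 and 3 and 1.19, 0.121 and 1.18 times in vector 1, 2 and 3. Vector 2 was thus lowest and SNHG5 2 next, while the other 4 lay close together. For NEAT1 the ratios were 0.425, 0.338 and 0.272 in SNHG5 1, 2 and 3 and 0.59, 0.101 and 0.507 in vector 1, 2 and 3. Here vector 1 and 3 were the highest, and the SNHG5 libraries lay between them and vector 2. For KCNQ1OT1 they were 0.0131, 0.00795 and 0.0252 in SNHG5 1, 2 and 3 and 0.0213, 0.00169 and 0.0234 in vector 1, 2 and 3, in the same order at the bottom as MALAT1. OIP5-AS1 differed from these: its ratio in vector 2, 0.151, lay within the range of the other libraries, 0.0958 to 0.259. The ratio of OIP5-AS1 to NORAD was thus not low in vector 2, although both RNAs were.

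**Figure D2:**
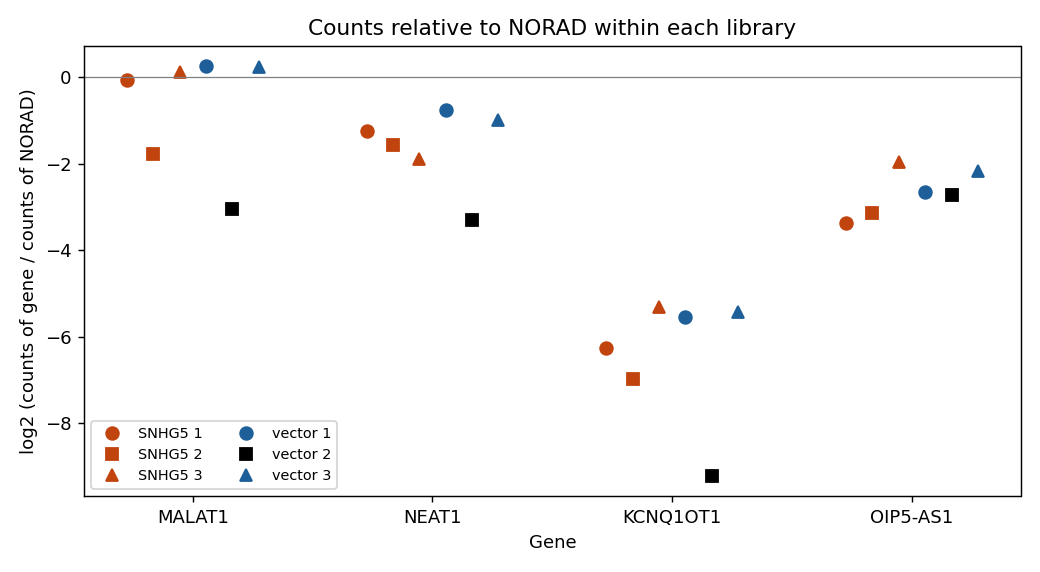
Log2 ratio of the counts of each gene to those of NORAD within the same library (y axis), 1 point per library, coloured as above. Vector 2 (black) lies lowest for MALAT1 (-3.05), NEAT1 (-3.31) and KCNQ1OT1 (-9.21), and inside the range of the other libraries for OIP5-AS1 (-2.73).

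Transcript length and GC content moved with the distance of vector 2 in coding and in long non-coding genes. For protein-coding genes the median log2 distance of vector 2 from the median of the other 5 was 0.71 where the longest transcript had up to 1000 bases, 0.43 up to 2000, 0.13 up to 4000, -0.16 up to 8000 and -0.44 above that. In the other 5 libraries the same medians lay between -0.21 and 0.17. Coding genes with a GC content of at most 40% had a median of -0.46, and those above 55% one of 0.3. Among 1163 tested long non-coding RNAs the median was -0.25, against 0.03 for 12776 coding genes, and it fell from 0.07 in those of up to 1000 bases to -0.81 in the 30 above 8000 bases. It was -0.54 in the 431 with a GC content of at most 45% and -0.06 in the 732 above that. Long non-coding RNAs whose longest transcript has 1 exon had a median of -0.52 (361 genes), and those with more exons one of -0.13 (802 genes).

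All 5 genes are long, and NORAD and OIP5-AS1 share the low GC content of the others: 40.3% for MALAT1, 44.1% for NEAT1, 43.7% for KCNQ1OT1, 41.6% for NORAD and 38.4% for OIP5-AS1. The log2 distance of MALAT1 was -3.86, and 3 of the 1156 coding genes above 8000 bases dropped as far (0.26%). For KCNQ1OT1, at -3.84, that was again 3 genes, and for NEAT1, at -2.77, it was 5 (0.433%). OIP5-AS1, at -0.64, was matched or passed by 34.9% of those coding genes, and NORAD, at -0.69, by 17.6% of the 4627 coding genes of 4000 to 8000 bases. Of 1380 coding genes above 4000 bases with at most 40% GC, 47.2% dropped as far as OIP5-AS1, 44.6% as far as NORAD and 0.725% as far as NEAT1. Of these 3 RNAs only OIP5-AS1 has so low a GC content. The class has a median of -0.6, against -0.33 for coding genes above 4000 bases with 40% to 45% GC, where NORAD and NEAT1 would fall. Of 30 long non-coding RNAs above 8000 bases, these genes included, 1 dropped further than MALAT1, 2 than KCNQ1OT1, 4 than NEAT1 and 16 than OIP5-AS1. Of 140 with 4000 to 8000 bases, 64 dropped further than NORAD. Since the genes were chosen by this distance, nothing is read from these counts and shares. In SNHG5 2, where MALAT1 and KCNQ1OT1 were also low, the medians of the coding length classes lay between -0.05 and 0.01. GC classes were not compared in SNHG5 2. The part of transcript length, base composition, RNA quality or nuclear location in the values of vector 2 or SNHG5 2 was not tested.

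**Figure D3:**
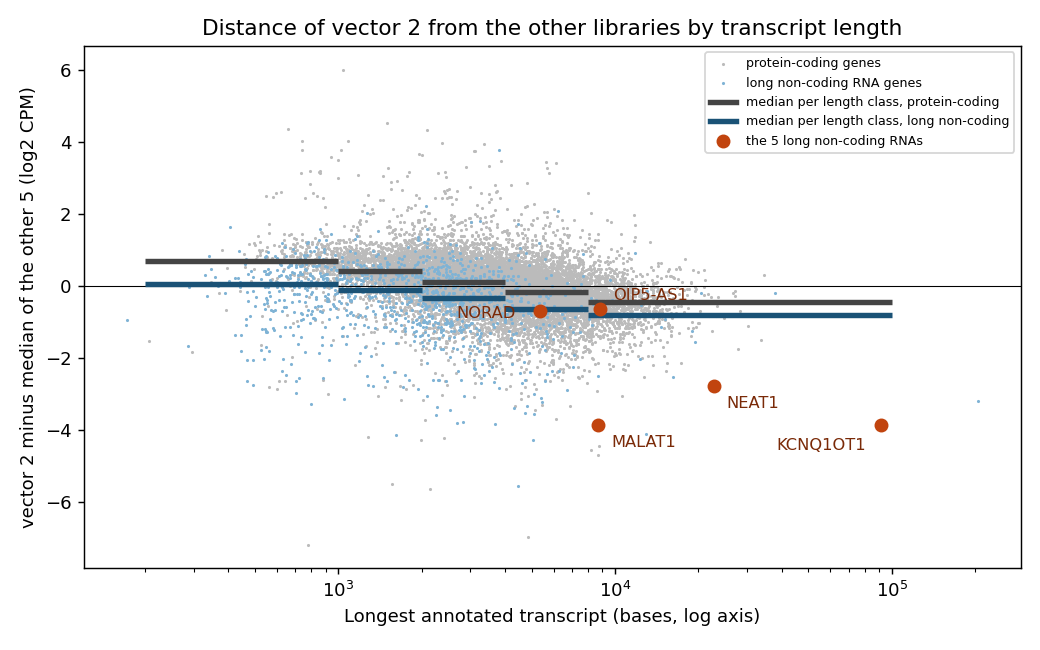
Log2 CPM of vector 2 minus the median of the other 5 libraries (y axis) against the length of the longest annotated transcript (x axis, log scale), 1 point per tested coding (grey) or long non-coding gene (light blue), with bars at the median of each length class. The medians fall with length in both kinds of gene, from 0.71 to -0.44 and from 0.07 to -0.81; NORAD and OIP5-AS1 (orange) lie among the grey points, and MALAT1, NEAT1 and KCNQ1OT1 below most of them.

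Other genes of the same biology were taken from lists of known members. The lists were not matched for transcript length or GC content. Beside the list counts below, 26.7% of all tested genes were lowest in vector 2 and 3.97% lay at least 2-fold below the rest. Of 13 listed symbols of further long non-coding RNAs known mainly as nuclear, 12 were in the table and 7 were tested. The list median of the log2 distance of vector 2 was -0.78, against 0.01 over all tested genes, and 3 of the 7 lay at least 2-fold below the other libraries. Over all 1163 tested long non-coding RNAs the median was -0.25. In those above 8000 bases, MEG3 and FTX among them, the median was -0.81, and 26.7% lay at least 2-fold below. MEG3, an imprinted nuclear RNA, was at 1.83 CPM in vector 2 against 29.9 to 44.9 CPM in the others, a larger drop than that of MALAT1. TUG1, found in both nucleus and cytoplasm, was at 66.5 against 136.0 to 169.2 CPM, and FTX, of the X-inactivation centre, at 4.19 against 10.8 to 23.9 CPM. The list was not uniform: LINC01578 was highest in vector 2, at 44.1 CPM against 18.0 to 37.6 CPM.

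Of 10 long non-coding RNAs known mainly as cytoplasmic, 7 were tested, and none was lowest in vector 2. Their median distance was 0.43. GAS5, a growth-arrest RNA and snoRNA host, was at 196.2 CPM in vector 2 and 48.2 to 281.0 CPM in the others. ZFAS1 was at 221.8 CPM against 59.5 to 232.7, SNHG1 at 69.1 against 25.6 to 108.6, and DANCR at 11.1 CPM against 2.95 to 5.09. Of these 4, DANCR was the one outside the range of the other libraries, on the high side.

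Genes known for detained introns, whose incompletely spliced messages stay in the nucleus, were low in vector 2 as well. All 9 listed genes were tested, 8 were lowest there, 3 lay at least 2-fold below the rest, and the median distance was -1.31. Of all tested genes 26.7% were lowest there and 3.97% lay at least 2-fold below. Among coding genes above 4000 bases with at most 40% GC these shares were 65.1% and 14.8%, with a median of -0.6. LUC7L3, a splicing factor gene, was at 33.2 CPM in vector 2 and 92.7 to 107.3 CPM in the others. OGT, which encodes the O-GlcNAc transferase, was at 64.2 against 186.8 to 246.3 CPM, and RSRP1 at 4.32 against 10.1 to 17.4 CPM. CLK1, a kinase of splicing factors, was the 1 gene of the 9 not lowest, at 28.0 CPM against 25.4 to 71.2 CPM.

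The proteins that work with these RNAs did not share so clear a pattern. Of 15 paraspeckle protein genes, 5 were lowest in vector 2, with a median distance of -0.16. For this and the next 2 lists, the share of all tested genes lowest there was 26.7%. SFPQ and NONO, which bind NEAT1 and hold paraspeckles together, were at 571.8 and 292.8 CPM there, inside the ranges of 461.8 to 692.5 and 282.5 to 398.2 CPM. MATR3, a nuclear matrix protein, was the 1 gene at least 2-fold below the rest, at 68.8 against 184.2 to 333.3 CPM, while TAF15 was at 129.3 against 145.1 to 230.3 CPM and RBM14 inside its range at 63.8 CPM. Of 14 nuclear speckle protein genes, 5 were lowest (median -0.32), with PNN, a speckle protein, at 100.3 against 197.0 to 340.5 CPM, SRSF11 at 42.2 against 73.8 to 90.3 CPM, and SRSF2, a splicing factor, highest at 192.1 against 65.1 to 108.4 CPM. Of 5 NORAD partners 3 were lowest in vector 2 (median -0.28). PUM2, a Pumilio protein, was at 133.7 CPM there, below the others at 185.6 to 200.5 CPM. RBMX, an RNA-binding protein, was at 161.5 against 190.1 to 225.1 CPM and TOP1, a topoisomerase, at 279.6 against 284.4 to 426.7 CPM.

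Of the genes beside MALAT1 and NEAT1, 13 were tested and none was lowest in vector 2 (median 0.34). FRMD8 was at 21.3 CPM there against 13.2 to 19.3 CPM. SSSCA1 and FAM89B were also highest in vector 2, SSSCA1 at 31.2 CPM against at most 21.3 CPM, and SLC25A45 was inside its range at 3.6 CPM. Of the 7 tested genes in the KCNQ1OT1 domain, none was lowest either (median 0.14): PHLDA2, an imprinted placental growth gene, was highest there at 31.2 CPM, with CARS at 55.0 and TSSC4 at 39.4 CPM inside their ranges. CDKN1C, a cell cycle inhibitor that KCNQ1OT1 is known to silence, had 1 to 5 counts per library and was not tested. ELAVL1, the RNA-binding protein HuR that binds OIP5-AS1, was at 90.5 CPM in vector 2, inside the range of 79.4 to 112.7 CPM. The 5 genes of that list had a median of 0.43, with CHP1 at 154.1 against 57.4 to 128.3 CPM and NDUFAF1 at 12.8 against 9.07 to 12.0 CPM. TALAM1, an antisense partner of MALAT1, was not analysed here.

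Genes for cutting and guarding the MALAT1 end, most of them subunits of RNase P, were not low in vector 2. None of the 11 tested was lowest there and their median distance was 0.63, with RPP14 at 25.2 against 7.05 to 22.7 CPM, RPP25 at 38.8 against 21.4 to 29.3 CPM and POP5 at 15.5 against 6.72 to 13.1 CPM. Of 12 other RNAs without a poly(A) tail 3 were tested, none lowest in vector 2 (median 0.61). Their signal recognition particle RNAs RN7SL1 and RN7SL2 were at 6.35 and 21.4 CPM there, inside their ranges. Of 9 abundant cytoplasmic messenger RNAs none was lowest (median 0.22), with PPIA at 1033.9 against 543.5 to 781.3 CPM, PGK1 at 637.0 against 345.7 to 480.3 CPM and TPT1 inside its range at 656.0 CPM. Of 10 A549 and epithelial markers none was lowest (median 0.36).

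**Figure D4:**
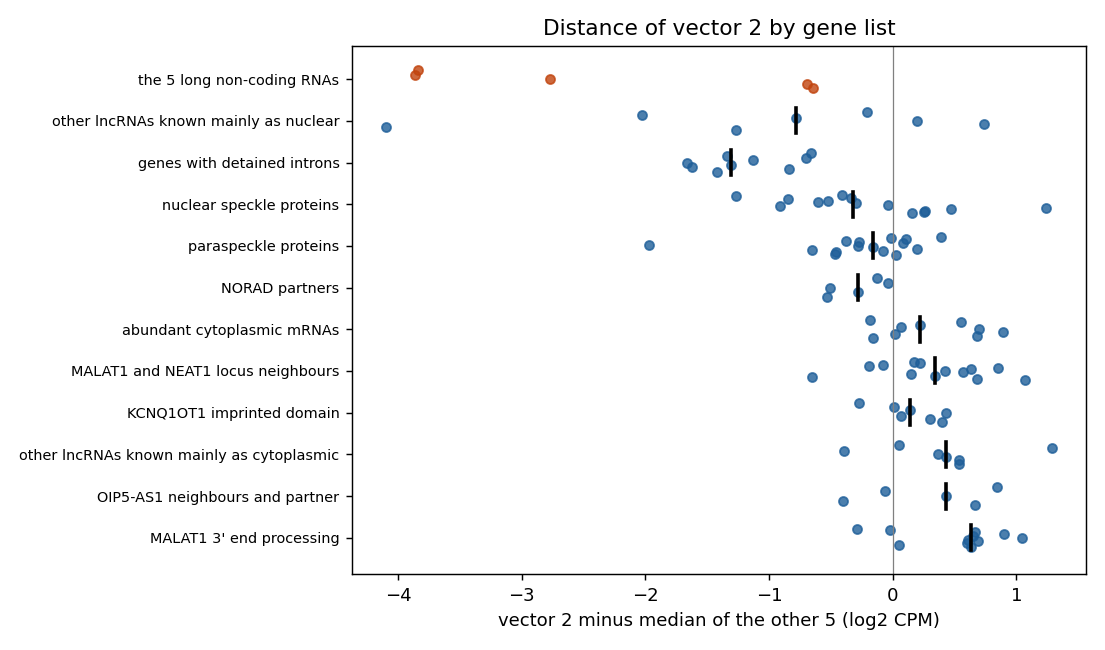
Log2 CPM of vector 2 minus the median of the other 5 libraries (x axis) for each tested gene of each list (rows), with a black bar at the list median; the 5 genes described here are in orange, without a median. Genes with detained introns (median -1.31) and other nuclear long non-coding RNAs (-0.78) lie to the left, and cytoplasmic long non-coding RNAs (0.43) and the neighbours of MALAT1 and NEAT1 (0.34) to the right. The lists were not matched for transcript length or GC content.

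The genes most like each of the 5 over the 6 libraries were sought among 9818 genes by the root mean square difference of log2 CPM after centring each gene. For MALAT1 they were CENPE, a kinetochore motor (0.38), CCDC18 (0.41) and CEP290, a cilium protein (0.54), and KCNQ1OT1, too rare for that search, was closer at 0.31. CENPE had 18.5 CPM in vector 2 and 80.7 CPM in SNHG5 2, against 140.2 to 229.5 CPM in the other 4. For NEAT1 they were HMMR, a hyaluronan receptor of the mitotic spindle (0.23), ZNF292 (0.26) and CEP290 (0.26), with MALAT1 at 0.71. The 5 coding genes CENPE, CCDC18, CEP290, HMMR and ZNF292 have GC contents of 35.3% to 38.6% and longest transcripts of 3102 to 10610 bases. The search used all 6 libraries, so a large drop in vector 2 was largely built into the genes found for MALAT1 and NEAT1. Since low GC content and length went with such drops, nothing is read from these traits. The genes most like NORAD were UCHL5, a deubiquitinase (0.05), PDZD8 (0.06) and SLC4A1AP (0.07), and for OIP5-AS1 they were TMEM147-AS1 (0.1), SDC1, a cell surface proteoglycan (0.12), and GPX8 (0.13). UCHL5, PDZD8 and SLC4A1AP have GC contents of 35.2%, 40.2% and 47.9% and longest transcripts of 5327, 9699 and 2966 bases. Their log2 distances of vector 2 were -0.61, -0.8 and -0.56. The genes like OIP5-AS1 have GC contents of 40.8% to 60.1% and longest transcripts of 3291 to 3911 bases.

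The comparison the study was built for, SNHG5 against vector, gave no call for any of the 5 genes, with 0.128% of all 15631 tested genes called by edgeR's quasi-likelihood test at an adjusted p under 0.05. With 3 libraries a group, a p that misses the threshold does not show that levels are alike. The labels do not say whether the replicates were separate cultures, and p-values measure the spread between these libraries, which may be technical.

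NORAD came closest. It stood at 425.7 ± 66.1 CPM in the SNHG5 libraries and 297.3 ± 58.1 CPM in the vector libraries (SD, n = 3 each), and the groups did not overlap. This is 1.43-fold, or 0.52 on the log2 scale with an SE of 0.23. The adjusted p in edgeR was 0.746. Of all tested genes 6.04% had every SNHG5 library above every vector library. An exact permutation test on log2 CPM gave the smallest two-sided p it allows with 3 against 3, 0.1. In pairs 1, 2 and 3 the SNHG5 library exceeded its vector partner by log2 values of 0.54, 0.79 and 0.25. Groups that do not overlap fix both that permutation result and the direction of every pair, so neither adds support. Without vector 2, the library with the least NORAD, the difference was 0.37 (SE 0.19, edgeR adjusted p 0.904).

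MALAT1 stood at 334.2 ± 190.0 CPM against 269.7 ± 210.1 CPM (SD, n = 3 each), 0.31 on the log2 scale with an SE of 0.86 and an adjusted p of 0.92 in edgeR. Its pairs lay at 0.21, 2.07 and 0.14 on the log2 scale, so that pairs 1 and 3 were nearly level and pair 2, which holds vector 2, was not. Without vector 2 the sign turned, to -0.23 (SE 0.54), without SNHG5 1 the value was -0.03, and without both libraries numbered 2, an alternative chosen after seeing the data, it was 0.18 (SE 0.19). That last SE was the smallest of the 3, with 371.4 to 475.3 CPM in the 4 libraries left.

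NEAT1 stood at 150.0 ± 56.7 CPM against 128.8 ± 93.8 CPM (SD, n = 3 each), 0.22 on the log2 scale with an SE of 0.66 and an adjusted p of 0.926 in edgeR. Pairs 1, 2 and 3 lay at 0.07, 2.53 and -0.65, and without vector 2 the difference was -0.28 (SE 0.32), without SNHG5 1 it was -0.12 and without both libraries numbered 2 it was -0.21. KCNQ1OT1 stood at 6.39 ± 3.11 CPM against 5.03 ± 4.02 CPM, 0.35 on the log2 scale with an SE of 0.83 and an adjusted p of 0.907 in edgeR, with pairs at -0.16, 2.68 and 0.35 and a value of -0.20 (SE 0.45) without vector 2 and -0.05 without SNHG5 3. OIP5-AS1 stood at 63.6 ± 28.9 CPM against 53.4 ± 17.7 CPM, 0.25 on the log2 scale with an SE of 0.37 and an adjusted p of 0.844 in edgeR. Its pairs lay at -0.19, 0.39 and 0.46, and the difference was 0.03 (SE 0.37) without vector 2 and -0.19 without SNHG5 3. The sign of the group difference of MALAT1, NEAT1, KCNQ1OT1 and OIP5-AS1 thus depended on single libraries. That of NORAD could not, since its groups do not overlap.

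With the replicate number as a block, the log2 differences were 0.78 (SE 0.40) for MALAT1, 0.58 (SE 0.60) for NEAT1, 0.76 (SE 0.56) for KCNQ1OT1, 0.53 (SE 0.19) for NORAD and 0.22 (SE 0.21) for OIP5-AS1. None passed, with edgeR adjusted p from 0.521 to 0.697, while 0.467% of all genes did. Without vector 2, 0% of 16044 genes passed in edgeR, 866 of them having an unadjusted p under 0.05. Of the other genes in the lists above, none passed edgeR in either direction, with list medians of the log2 difference from -0.85 to 0.34, against 0.01 over all tested genes. The value of -0.85 rests on the 2 tested markers of other cell types. These were CD68 (-1.32, edgeR adjusted p 0.0947) and COL1A1 (-0.38, edgeR adjusted p 0.885). Fewer cells holding an RNA and less of it per cell cannot be told apart in these bulk libraries.

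**Figure D5:**
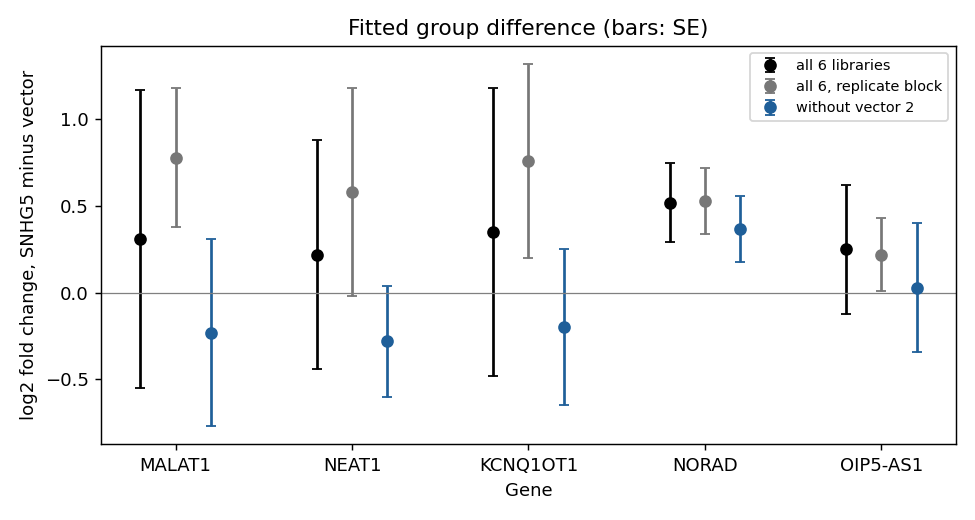
Fitted log2 fold change of the SNHG5 against the vector libraries (y axis) for each gene, with bars of 1 SE, over all 6 libraries (black), with the replicate number as a block (grey) and without vector 2 (blue). Without vector 2 the values of MALAT1, NEAT1 and KCNQ1OT1 lie below 0 (-0.23, -0.28 and -0.20), while NORAD stays at 0.37.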

How the data were processed

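RNA was isolated with an RNeasy mini kit and made into paired-end libraries with a TruSeq RNA kit, per the labels' protocols; that kit in its standard form does not mark strand. FastQC and HISAT2 with GRCh38 are named in the submitters' processing notes, while the counting program is not given in the sources used here. What the authors deposited is 1 table with read counts (whole numbers) and FPKM for each gene and library. The length behind each deposited FPKM value was 16.89 kb for MALAT1, 1.91 times the 8.83 kb of its merged exons, so FPKM entered no test and levels per kilobase use merged GENCODE 29 exons.

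Counts were tested with edgeR 4.0.16 (R 4.3.3; TMM, filterByExpr, robust quasi-likelihood, two-sided, Benjamini-Hochberg over all genes tested), a step tested on simulated data. The simulation used a common dispersion for all genes and no outlying library. It therefore does not show how the test performs with a library like vector 2. The SE is the log2 fold change over the root of F. Log2 CPM values use a prior count of 2. Alternatives were other size factors and filters, DESeq2 1.42.0, limma-voom (limma 3.58.1), the replicate block and leaving out libraries. The members and lists were chosen with earlier results of these data known. Named were the 5 members, up to 3 genes per list with the largest distance of vector 2 in either direction (mean log2 CPM of at least 2), a set of partners and neighbours, and the 3 genes most like each member (mean log2 CPM of at least 3). LINC01578, GAS5, CLK1, the keratins, ALDH1A1, EPCAM, PTPRC, CD3E, SFTPC, PECAM1, VWF, DCN and the RNAs of the other observations were named after their values were seen. Some genes of the rule are not reported here.

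Deviations from the group means correlated at 0.35, 0.16 and 0.29 between the libraries numbered 1, 2 and 3, each above 0.1. SNHG5 2 and vector 1, which differ in number, were also above it, at 0.12. The sample titles only number the libraries. Same-numbered libraries were therefore described as pairs and used as the replicate block, an alternative, while the main fits used no pairing. Replicates differed beyond sampling noise (chi-square per degree of freedom 23.9 to 85.7). A floor of 3 counts is 0.174 to 0.218 CPM.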

Additional observations from a re-analysis of the deposited data

How the results depend on the processing

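The group difference of the 5 genes passed the threshold in none of 69 alternatives, with adjusted p (edgeR, DESeq2 or limma-voom) from 0.214 to 1.0. NORAD stayed positive in all of its alternatives, at 0.37 to 0.63 without 1 library, where groups that do not overlap fix the sign. MALAT1 ran from -0.23 to 0.74 without 1 library, NEAT1 from -0.28 to 0.71, KCNQ1OT1 from -0.2 to 0.72 and OIP5-AS1 from -0.19 to 0.5. The sign turned without vector 2 for MALAT1 (-0.23), NEAT1 (-0.28) and KCNQ1OT1 (-0.2), without SNHG5 1 for MALAT1 (-0.03) and NEAT1 (-0.12), without SNHG5 3 for KCNQ1OT1 (-0.05) and OIP5-AS1 (-0.19), and without both libraries numbered 2 for NEAT1 (-0.21). With limma-voom the values were 0.80 for MALAT1, 0.65 for NEAT1 and 1.05 for KCNQ1OT1. KCNQ1OT1 was lost to the stricter filter, which asks for 1 CPM in every library.

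The count of higher and lower genes, 4 and 16 with edgeR, was 22 and 238 with DESeq2, 4 and 69 with the replicate block, 6 and 72 with no filter, and 0 and 0 without both libraries numbered 2, where 538 had an unadjusted p under 0.05. Without 1 library it ran from 0 to 20 higher and 0 to 144 lower: 0 and 1 without SNHG5 1, 0 and 0 without SNHG5 2, vector 2 or vector 3, 3 and 19 without vector 1, and 20 and 144 without SNHG5 3, with 569 to 3390 genes at an unadjusted p under 0.05. The cause was not tested. The block changed no call of the 5 genes.

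The log2 distance of vector 2 stayed within -3.87 to -3.77 for MALAT1, -2.94 to -2.66 for NEAT1, -4.11 to -3.75 for KCNQ1OT1, -0.7 to -0.5 for NORAD and -0.82 to -0.56 for OIP5-AS1 over raw totals, RLE size factors, a prior count of 0.5 and the other 2 vector libraries alone as reference. Relative to NORAD it was -3.29 to -2.72, -2.44 to -2.07 and -3.55 to -2.85 for MALAT1, NEAT1 and KCNQ1OT1, with OIP5-AS1 as denominator among the alternatives. Depth limits KCNQ1OT1 most, with 6 counts in vector 2.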

Other observations

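Other long non-coding RNAs, chosen here after their values were seen, were as low as MALAT1 or nearly so in vector 2. Among genes with a mean log2 CPM of at least 3, AC006058.1 was at 3.99 CPM there and 43.7 to 84.3 CPM in the other libraries, AC015813.1 at 0.982 against 8.58 to 14.6 CPM, and LINC00641 at 2.29 against 16.7 to 27.1 CPM. The coding genes CACNG8 and AC007240.1 had larger drops than these, with log2 distances of -4.43 and -4.28. Of the 19 tested genes that dropped at least as far as MALAT1, itself included, 10 were protein-coding, 5 long non-coding and 4 of other types. Of the 621 genes at least 2-fold below all other libraries in vector 2, 123 were long non-coding (19.8% of them, and 10.6% of the long non-coding genes tested) and 405 protein-coding (65.2% of them, and 3.17% of the coding genes tested). The 5 genes described here took 0.0329% of all counts in vector 2 and 0.0726% to 0.123% elsewhere, and 4.99% of the counts of long non-coding RNAs there against 8.73% to 13.9%.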
